A study of Homo sapiens with 12 samples.

Results

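Transcript levels of 9 genes at the core of homologous recombination were followed in 12 RNA-seq libraries of the ovarian carcinoma lines COV362 and PEO1. The genes were BRCA1, BRCA2, PALB2, BARD1, BRIP1, RBBP8, RAD51AP1, NBN and RAD50. They were taken by symbol, 9 of 26485 genes in the deposited count table, and all 9 were among the 14498 genes that passed the filter on low counts. Both are established lines grown from human high-grade serous ovarian cancers, and the labels call them parental. As background, COV362 is known to carry a mutation of BRCA1 and PEO1 a truncating mutation of BRCA2. The labels do not state these genotypes, and gene counts do not show which allele a read came from. Each line received DMSO as vehicle or prexasertib at 20 nM, a drug that blocks the kinases CHK1 and CHK2 of the replication checkpoint. The 4 groups were thus COV362 DMSO, COV362 prexasertib, PEO1 DMSO and PEO1 prexasertib, with 3 libraries each, lettered A, B and C. The labels give neither the length of treatment nor whether the letters mark separate cultures, so the p-values measure the spread between these samples, which may be technical.

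Homologous recombination repairs a broken chromosome by copying an intact sister sequence. The MRN complex, of which NBN and RAD50 are subunits, binds the broken ends, and RBBP8 (the protein CtIP) starts to trim them into single strands. BRCA1, held in a stable pair with BARD1 and also bound by the helicase BRIP1, promotes this trimming and recruits PALB2. PALB2 brings in BRCA2, which acts on the trimmed single strand, and RAD51AP1 helps that strand to pair with its template. Cells without working BRCA1 or BRCA2 depend on other ways to protect replication forks, and CHK1 is a kinase of that response.

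Library totals ranged from 9390790 to 18262805 counts, and the members held 37 to 2243 counts in a library. Levels are given as CPM, counts scaled to library size with edgeR's TMM factors, as the mean ± SD over n = 3 libraries unless stated otherwise. A gene was called when its edgeR quasi-likelihood p-value, Benjamini-Hochberg (BH) adjusted over all 14498 tested genes, was under 0.05. Changes are log2 fold changes ± SE from that fit. The Müllerian transcription factor gene PAX8 averaged 82.9 to 144 CPM over the groups. WT1 was low at 4.49 to 9.35 CPM, SOX17 was at 0 in all 6 PEO1 libraries, and CDH1 averaged 0.346 CPM or less in the COV362 groups. The fibroblast gene LUM and the B cell gene MS4A1 were at 0 in all 12 libraries, and PTPRC, which marks leukocytes, had 2 counts in all. The summed levels were 4.11 to 10.2 CPM for 7 fibroblast genes and 31.0 to 60.1 CPM for 5 immune genes, of which CD68 made up most. The 4 endothelial genes summed to 80.8 to 96.5 CPM in COV362 DMSO, 55.0 to 56.0 in COV362 prexasertib, 6.49 to 7.57 in PEO1 DMSO and 1.43 to 3.68 in PEO1 prexasertib, mostly CDH5. They thus moved with the line and the drug, and their part in the results was not tested. The samples are bulk RNA, in which fewer cells expressing a gene and less of its RNA per cell cannot be told apart.

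The members lie on 8 chromosomes in hg38, with outer exon ends as the table gives them. BRCA2 (chromosome 13, 32315480 to 32399672, plus strand) has the longest exonic length of the 9 genes, 11386 bases in 27 exon blocks. BRCA1 (chromosome 17, 43044295 to 43125483, minus strand) has 7362 bases and BRIP1, on the same chromosome (61679186 to 61863559, minus strand), 8166 bases. PALB2 (chromosome 16, 23603162 to 23641357, minus strand) has 4058 bases and BARD1 (chromosome 2, 214725646 to 214809711, minus strand) 5506. RAD51AP1 (chromosome 12, 4538784 to 4560047, plus strand) is the shortest, at 2269 bases. RBBP8 lies on chromosome 18 (22933332 to 23026486, plus strand) and RAD50 on chromosome 5 (132556924 to 132644621, plus strand). Their exonic lengths are 3555 and 6597 bases.

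Promoter windows of 250 bases before to 50 bases after a RefSeq start site were found for 8 of the 9 genes, all but NBN. The table's 5′ ends lie 4 to 119 bases from these start sites. The windows below belong to BRCA2, the only member called after prexasertib, and to PALB2, BRCA1 and RAD51AP1, each of which starts close to a gene on the opposite strand that was measured in the same libraries. Capitals mark matches, on either strand, to the motifs that were searched.
BRCA2 promoter, GRCh38.p14 chr13:32315258-32315557, plus strand: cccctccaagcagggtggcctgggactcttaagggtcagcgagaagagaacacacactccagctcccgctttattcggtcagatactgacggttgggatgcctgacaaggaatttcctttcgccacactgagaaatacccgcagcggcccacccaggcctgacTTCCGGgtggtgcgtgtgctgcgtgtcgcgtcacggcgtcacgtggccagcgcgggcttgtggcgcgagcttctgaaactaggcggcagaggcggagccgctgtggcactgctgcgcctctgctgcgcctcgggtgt
PALB2 promoter, GRCh38.p14 chr16:23641261-23641560, minus strand: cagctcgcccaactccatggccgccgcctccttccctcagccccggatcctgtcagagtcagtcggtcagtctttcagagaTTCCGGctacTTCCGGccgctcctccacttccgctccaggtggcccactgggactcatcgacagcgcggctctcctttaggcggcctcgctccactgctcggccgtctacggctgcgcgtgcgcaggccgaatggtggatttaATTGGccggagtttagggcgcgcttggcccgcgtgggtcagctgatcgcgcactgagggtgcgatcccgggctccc
BRCA1 promoter, GRCh38.p14 chr17:43125315-43125614, minus strand: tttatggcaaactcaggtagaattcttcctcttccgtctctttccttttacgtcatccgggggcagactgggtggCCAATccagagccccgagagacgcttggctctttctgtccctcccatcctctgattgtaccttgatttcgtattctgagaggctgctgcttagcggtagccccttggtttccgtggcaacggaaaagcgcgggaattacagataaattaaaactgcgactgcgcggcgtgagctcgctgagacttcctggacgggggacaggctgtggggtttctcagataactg
RAD51AP1 promoter, GRCh38.p14 chr12:4538640-4538939, plus strand: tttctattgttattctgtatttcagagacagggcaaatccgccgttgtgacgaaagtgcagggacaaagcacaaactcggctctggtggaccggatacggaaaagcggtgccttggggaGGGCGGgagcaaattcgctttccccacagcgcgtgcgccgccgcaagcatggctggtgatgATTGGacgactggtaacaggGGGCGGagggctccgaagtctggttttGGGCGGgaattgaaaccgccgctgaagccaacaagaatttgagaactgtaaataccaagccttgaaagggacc
The motifs searched on both strands were E2F (TTTCCCGC, TTTCGCGC, TTTGCCGC or TTTGGCGC), CHR (TTTGAA or TTCGAA), the CCAAT box (CCAAT), ETS (CCGGAA), CRE (TGACGTCA) and the GC box (GGGCGG). The BRCA2 window holds a single match, to ETS, at −87 to −82 from the start, and the ETS letters occur in 17.2% of 35116 promoter windows. The PALB2 window holds ETS matches at −169 to −164 and −159 to −154 and a CCAAT match at −26 to −22. BRCA1 has a CCAAT match at −175 to −171, and RAD51AP1 has GC box matches at −131 to −126, −50 to −45 and −23 to −18 beside a CCAAT match at −70 to −66. Over the 8 members, CCAAT was found in 4 windows (34.6% of all windows hold it), the GC box in 5 (45.0%), ETS in 3 (17.2%) and CHR in 1, that of BRIP1 (16.4%). No member window holds the E2F letters (3.31% of all windows) or the CRE letters (1.85%). These are matches of letters only, and a window without a match says nothing about binding.

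The genes differed widely in level when counts were divided by exonic length. RAD51AP1 had the highest mean in all 4 groups and BRCA2 the lowest. RAD51AP1 is also the shortest of these genes in exonic length and BRCA2 the longest. The part of exonic length in this order was not tested. In CPM per kilobase of exon, RAD51AP1 averaged 21.1 ± 3.13 in COV362 DMSO and 26.5 ± 4.49 in PEO1 DMSO, where RBBP8 averaged 16.9 ± 1.37 and 26.1 ± 0.932. BRCA1 averaged 13.2 ± 1.31 and 15.5 ± 1.78 on this scale in the same groups, and NBN 17.5 ± 3.22 and 13.1 ± 1.32. RAD50 followed with 5.64 ± 1.82 and 3.98 ± 0.806, BRIP1 with 4.77 ± 1.73 and 2.57 ± 0.745, PALB2 with 3.92 ± 0.448 and 7.42 ± 0.977, and BARD1 with 3.71 ± 0.735 and 2.98 ± 0.625. BRCA2 stood at 1.41 ± 0.486 and 0.431 ± 0.195 CPM per kilobase, and its highest library lay below the lowest library of the next gene in each of the 4 groups. Many other neighbours in the order overlapped: 5 of 8 neighbouring pairs in COV362 DMSO, 5 of 8 in COV362 prexasertib, 4 of 8 in PEO1 DMSO and 2 of 8 in PEO1 prexasertib. In both COV362 groups RAD51AP1, NBN and RBBP8 overlapped in turn at the top, and in PEO1 prexasertib RAD51AP1 (35.0 ± 2.89) stood clear of RBBP8 (26.2 ± 1.26). PALB2 took the seventh place in COV362 DMSO and the fifth in both PEO1 groups.

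**Figure D1:**
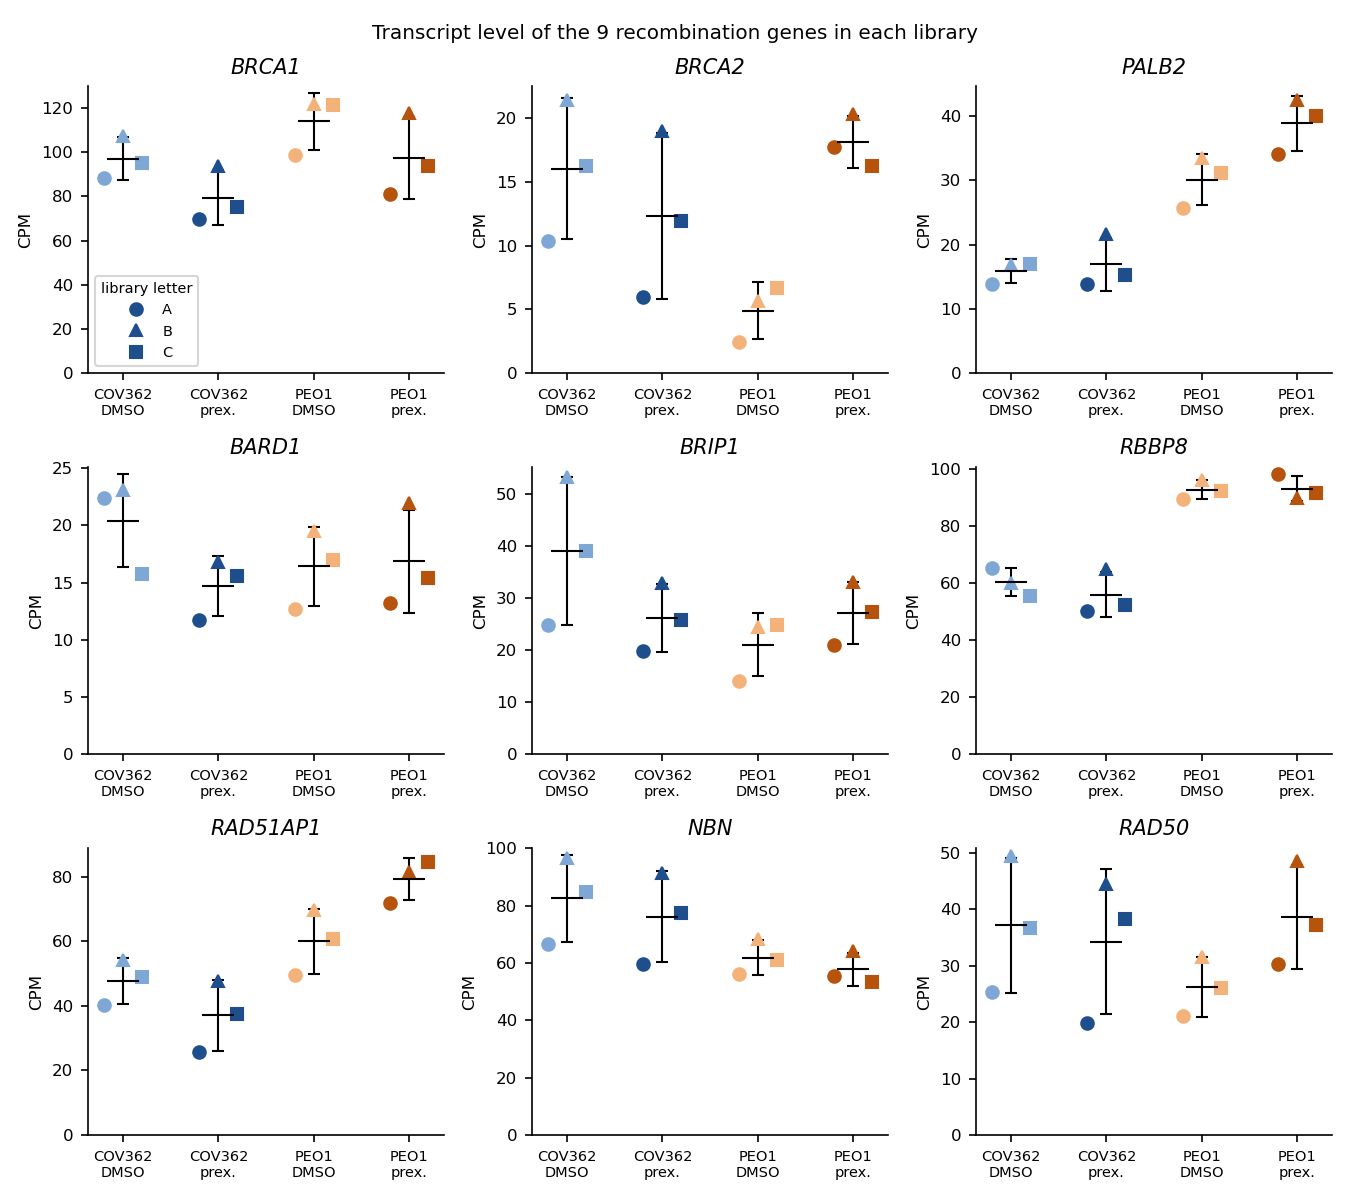
Transcript level in CPM (vertical axes, from 0, on a separate scale for each gene) of the 9 genes in the 4 groups. Points are libraries, shaped by letter, and bars show the mean ± SD of 3 libraries. BRCA2 lies between 2.42 and 6.65 CPM in PEO1 DMSO and between 16.3 and 20.3 CPM in PEO1 prexasertib, and PALB2 and RBBP8 are higher in all PEO1 libraries than in all COV362 libraries.

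The first comparison asked whether prexasertib changed these genes in PEO1, the line known for its BRCA2 mutation. BRCA2 was the only member called, and it rose. Its levels were 2.42, 5.65 and 6.65 CPM in the A, B and C libraries of PEO1 DMSO and 17.8, 20.3 and 16.3 CPM in those of PEO1 prexasertib. All treated libraries were above all DMSO libraries. These values rest on 37, 104 and 121 counts in DMSO and 303, 370 and 270 with the drug. The mean went from 4.91 ± 2.21 to 18.1 ± 2.04 CPM, a 3.67-fold rise (log2 1.88 ± 0.41, edgeR, BH-adjusted p = 0.00389). By letter, the log2 rise was 2.88, 1.85 and 1.29 for A, B and C, although the letters were not taken as pairs in PEO1. The A library, with the lowest DMSO level, has the largest ratio under any pairing of these libraries. BRCA2 was called in all 12 fits that left out a single library, with a log2 change of 1.51 to 2.10 and an adjusted p of at most 0.0196. Fits without a COV362 library kept every PEO1 library, and those without COV362 DMSO A, B or C gave 1.87 each. Only the fits without a PEO1 library probe single libraries of this comparison. By log2 fold change BRCA2 ranked 490 from the top of the 14498 tested genes in this comparison.

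PALB2 and RAD51AP1 were higher in every treated PEO1 library than in every DMSO library but were not called. PALB2, which links BRCA1 to BRCA2, was at 25.7, 33.4 and 31.1 CPM in DMSO and at 34.2, 42.5 and 40.0 CPM with prexasertib (log2 0.37 ± 0.18, adjusted p = 0.146). RAD51AP1, the strand pairing factor gene, was at 49.5, 69.9 and 60.7 CPM in DMSO and at 72.0, 81.4 and 84.7 CPM with the drug (0.40 ± 0.20, adjusted p = 0.149). For both genes the gap between the groups was small beside the spread within them. With BRCA2, 3 members were thus higher without overlap and 0 were lower, where 25.0% of all tested genes were higher without overlap and 25.0% lower. RAD50 was at 21.0, 31.6 and 26.1 CPM in DMSO and 30.3, 48.5 and 37.2 CPM with the drug, groups that overlapped slightly (0.56 ± 0.30, adjusted p = 0.174). RAD50 was called when the 4 A libraries were left out together (0.57 ± 0.18, adjusted p = 0.0283). In a fit of the 6 PEO1 libraries alone, both RAD50 (0.55, adjusted p = 0.0329) and RAD51AP1 (0.40, adjusted p = 0.0338) were called.

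The remaining members were not called in PEO1, and the change of BRIP1 was close to that of PALB2. BRCA1 was at 98.9, 122 and 121 CPM in DMSO and at 81.0, 118 and 93.9 CPM with prexasertib, overlapping groups (−0.23 ± 0.16, adjusted p = 0.317). A correction for exonic length made BRCA1 a call (−0.30 ± 0.11, adjusted p = 0.0369). Its binding partner BARD1 averaged 16.4 ± 3.44 and 16.8 ± 4.53 CPM (0.04 ± 0.24, adjusted p = 0.933). The helicase gene BRIP1 averaged 21.0 ± 6.09 and 27.1 ± 6.03 CPM (0.37 ± 0.29, adjusted p = 0.370). RBBP8, the gene of the trimming factor CtIP, averaged 92.7 ± 3.31 and 93.1 ± 4.49 CPM, with coefficients of variation of 3.57% and 4.82%, the lowest of the 9 genes in both PEO1 groups (0.01 ± 0.13, adjusted p = 0.982). NBN (chromosome 8, 89933336 to 89984724, minus strand, 4724 exonic bases) averaged 61.9 ± 6.23 and 57.8 ± 5.66 CPM (−0.10 ± 0.17, adjusted p = 0.707). In all, 1 member was called higher and 0 lower in PEO1, where 14.7% of all tested genes were called higher and 14.6% lower. A single call among 9 genes is no larger a share than that background. The member median was 0.37 on the log2 scale, with 7 of 9 above 0, beside a median of 0.01 over all tested genes.

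In COV362, the line known for its BRCA1 mutation, no member was called after prexasertib, whichever of edgeR, DESeq2 and limma-voom was used, and none had an unadjusted edgeR p under 0.05. BRCA2 was at 10.4, 21.5 and 16.3 CPM in the A, B and C libraries of DMSO and at 5.98, 19.0 and 11.9 CPM with the drug, so the groups overlapped (−0.39 ± 0.39, adjusted p = 0.764). BRCA1 was at 88.6, 108 and 95.2 CPM in DMSO and at 69.6, 93.7 and 75.2 CPM with the drug (−0.29 ± 0.16, adjusted p = 0.507). BRIP1 was at 24.8, 53.1 and 39.0 CPM and then at 19.8, 32.8 and 25.7 CPM (−0.59 ± 0.29, adjusted p = 0.434), and the change was −0.30 without COV362 DMSO B. In each of these 3 genes every letter was lower with the drug, while the letters differed from each other by more than the drug groups did.

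The other 6 members had groups that overlapped as well. RAD51AP1 averaged 47.9 ± 7.11 and 37.1 ± 11.02 CPM (−0.37 ± 0.20, adjusted p = 0.495), and BARD1 20.4 ± 4.05 and 14.7 ± 2.65 CPM (−0.47 ± 0.24, adjusted p = 0.452). The MRN genes NBN (82.6 ± 15.2 and 76.1 ± 15.97 CPM, −0.12 ± 0.17) and RAD50 (37.2 ± 12.01 and 34.2 ± 12.9 CPM, −0.12 ± 0.30) had adjusted p-values of 0.858 and 0.931. RBBP8 averaged 60.2 ± 4.88 and 55.9 ± 7.97 CPM (−0.11 ± 0.13, adjusted p = 0.811). PALB2 averaged 15.9 ± 1.82 and 16.9 ± 4.17 CPM, the only value above 0 (0.09 ± 0.19, adjusted p = 0.923). The count of 0 higher and 0 lower stands beside 0.607% of all tested genes called higher and 0.221% lower. No member had groups without overlap, against 6.82% of tested genes higher and 7.63% lower. The member median was −0.29 on the log2 scale, with 8 of 9 below 0, beside −0.01 over all tested genes.

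Deviations of same-letter libraries correlated at 0.119 to 0.368 in COV362, all above 0.1, so the fit with the letter as a block is given here. Different letters reached 0.126. That block was common to all 12 libraries, including those of PEO1, where the C pair was at 0.0672. With it, 3 members were lower and 0 higher, where 5.45% of all tested genes were called lower and 4.2% higher. They were BRIP1 (−0.56 ± 0.13, adjusted p = 0.00831), RAD51AP1 (−0.38 ± 0.12, adjusted p = 0.0375) and BRCA1 (−0.29 ± 0.09, adjusted p = 0.0474). The size of each change was close to that without the block, and its SE was smaller. With the block and a correction for exonic length together, BRCA1 was no longer called (−0.16 ± 0.09, adjusted p = 0.256), while BRIP1 (−0.42 ± 0.12, 0.0258) and RAD51AP1 (−0.45 ± 0.11, 0.0117) were. Across the 9 genes, 6 were lower with the drug in all 3 letters of COV362 and 0 were higher in all 3, while in PEO1 5 were higher and 2 lower in all 3. The share of all tested genes with such agreement was not computed, so these counts have no background. The members also moved together by letter, and the letters were not taken as pairs in PEO1.

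**Figure D2:**
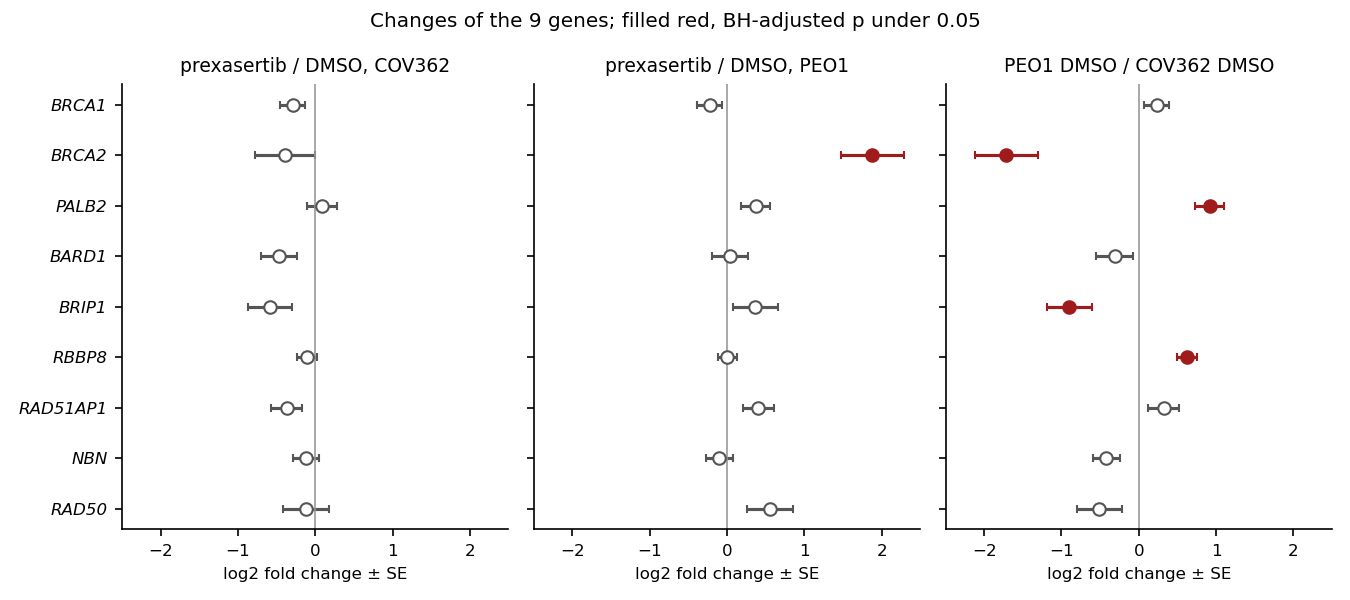
Log2 fold change ± SE (horizontal axes) of the 9 genes for prexasertib against DMSO in COV362 and in PEO1 and for PEO1 DMSO against COV362 DMSO. Filled red points are called at an adjusted p under 0.05 in the fit without a block: 0 in COV362, BRCA2 in PEO1, and BRCA2, PALB2, BRIP1 and RBBP8 between the lines.

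The next comparison tested whether the drug changes themselves differed between the lines. BRCA2 differed: its change in PEO1 exceeded that in COV362 by 2.27 ± 0.56 on the log2 scale (edgeR, BH-adjusted p = 0.0336). The change was above 0 in all 3 letters of PEO1, which any pairing of its non-overlapping groups gives. In COV362 it was below 0 in all 3 letters, where the groups overlapped. The call held in 3 of the 12 fits that left out a single library, those without COV362 DMSO A (adjusted p = 0.0194), COV362 prexasertib A (0.0414) or COV362 prexasertib B (0.0107). It was lost without any of the other 9 libraries, with adjusted p-values up to 0.0855 and a difference of 1.88 to 2.48 in those fits. Without the 4 A libraries together it was 1.86 ± 0.35 (adjusted p = 0.00919).

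All 9 differences were above 0, with a median of 0.50 beside 0.03 over all tested genes, but BRCA2 alone was called without a block. That is 1 member higher and 0 lower, where 3.14% of all tested genes were called higher and 2.97% lower. The next largest were BRIP1 (0.95 ± 0.41, adjusted p = 0.167), RAD51AP1 (0.77 ± 0.29, adjusted p = 0.117) and RAD50 (0.68 ± 0.42, adjusted p = 0.327). BRIP1 was called without the A libraries (0.95 ± 0.26, adjusted p = 0.0416), and RAD51AP1 without COV362 prexasertib B (0.996 ± 0.27, adjusted p = 0.0315). With the letter as a block, which met the criterion for pairing in COV362 but not in PEO1, 4 members were called higher and 0 lower, where 15.1% of all tested genes were called higher and 14.0% lower. They were BRCA2 (2.39 ± 0.33, adjusted p = 2.9e-05), BRIP1 (0.94 ± 0.18, 0.000701), RAD51AP1 (0.80 ± 0.16, 0.000794) and RAD50 (0.69 ± 0.18, 0.00708). BARD1 (0.50 ± 0.34), PALB2 (0.28 ± 0.26), RBBP8 (0.11 ± 0.18), BRCA1 (0.06 ± 0.23) and NBN (0.02 ± 0.25) had adjusted p-values of 0.369 to 0.987. The values of BRCA1, RBBP8 and NBN are within an SE of 0 and changed sign under some settings.

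Between the untreated lines, 4 members were called, 2 higher and 2 lower in PEO1. The background was high, since 29.1% of all tested genes were called higher and 28.6% lower, and the members' shares were below it. PALB2 was higher, at 25.7 to 33.4 CPM in PEO1 DMSO against 13.8 to 17.0 CPM in COV362 DMSO (0.92 ± 0.19, adjusted p = 0.000868). RBBP8 was higher too, at 89.6, 96.2 and 92.3 CPM against 65.2, 60.0 and 55.5 CPM (0.62 ± 0.13, adjusted p = 0.000796). BRCA2 was lower, at 2.42 to 6.65 CPM against 10.4 to 21.5 CPM (−1.71 ± 0.41, adjusted p = 0.00255). In none of these 3 genes did the groups overlap, and each was called in all 12 fits that left out a library. Of these fits, those without a prexasertib library kept every library of this comparison. The share of all tested genes without overlap was not computed here. This comparison and the drug comparison in PEO1 share the PEO1 DMSO libraries, in which BRCA2 was low.

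BRIP1 was lower in PEO1 DMSO, at 14.0, 24.3 and 24.7 CPM against 24.8, 53.1 and 39.0 CPM (−0.90 ± 0.29, adjusted p = 0.0167). The highest PEO1 library lay just under the lowest COV362 library. The call was lost without COV362 DMSO B (−0.61 ± 0.29, adjusted p = 0.0941) and without PEO1 DMSO A (−0.68 ± 0.30, adjusted p = 0.0747). The 5 members not called were NBN (−0.42 ± 0.17, adjusted p = 0.0526), RAD50 (−0.51 ± 0.30, 0.159), BARD1 (−0.31 ± 0.24, 0.281), RAD51AP1 (0.32 ± 0.20, 0.188) and BRCA1 (0.23 ± 0.16, 0.242). Same-letter correlations of the 2 DMSO groups were all above 0.1 (0.124 to 0.297), though different letters reached 0.21. With the letter as a block 4 members were higher and 4 lower (34.3% and 34.0% of all tested genes). The gained ones were BRCA1 (0.23 ± 0.09, adjusted p = 0.0285) and RAD51AP1 (0.33 ± 0.11, 0.0141), higher, and NBN (−0.41 ± 0.10, 0.00111) and RAD50 (−0.48 ± 0.13, 0.0025), lower. BARD1 was not called with the block (−0.31 ± 0.17, adjusted p = 0.105).

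The members shared a spread within groups that followed the library letter. The A library was the lowest of the 3 in 31 of the 36 sets of a member and a group (86.1%), against 40.3% of such sets over all tested genes. The B library was the highest in 30 of 36 sets (83.3%), against 35.2% over all tested genes. BRCA1 and RAD50 had A lowest and B highest in all 4 groups, whereas RBBP8 had A lowest in 2. BRCA2 had a coefficient of variation of 34.5% in COV362 DMSO, where that of BRIP1 was 36.3%, and of 53.0% in COV362 prexasertib and 45.1% in PEO1 DMSO, against 11.2% in PEO1 prexasertib. The A libraries leaned away from genes of long exonic length (rho of the deviation from the group mean with length, across genes, −0.41 to −0.34 in the 4 groups) and the B libraries toward them (0.13 to 0.43). BRCA2, the longest of the 9, rose in PEO1 by 1.75 ± 0.30 after a correction for exonic length (adjusted p = 0.000471) and by 1.57 ± 0.25 without the A libraries (adjusted p = 0.000446).

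**Figure D3:**
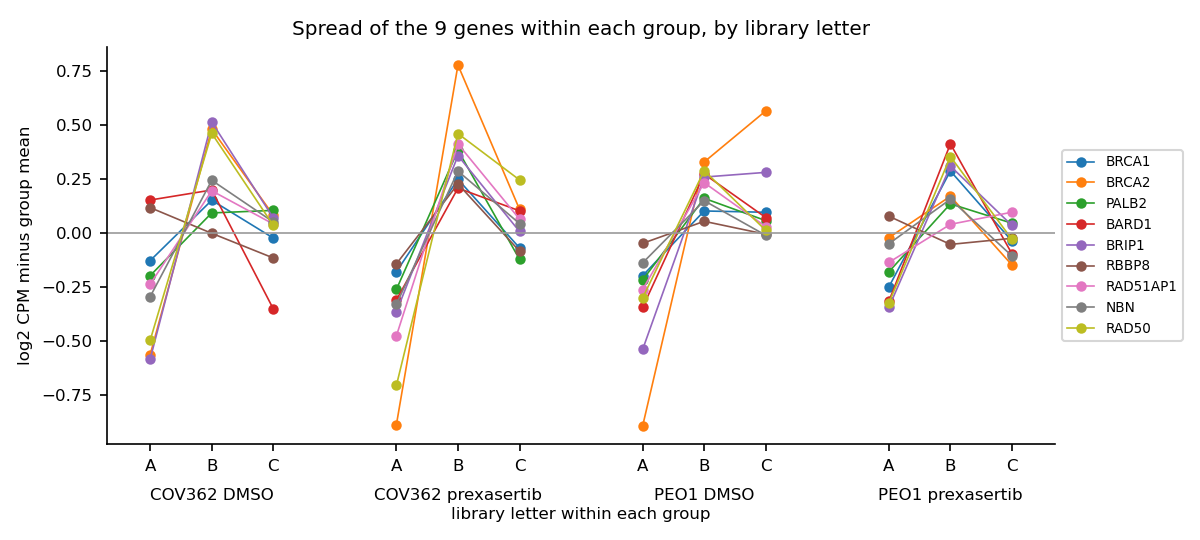
Deviation of each member's log2 CPM from its group mean (vertical axis) for the A, B and C libraries of the 4 groups (horizontal axis). Each line joins the 3 libraries of 1 gene in a group. Most lines start low at A and peak at B, and the A library is the lowest in 31 of 36 sets.

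The balance of partners within a library does not depend on how libraries are scaled to each other, and it was compared as the difference in log2 CPM per kilobase (prior count 1). It was not corrected for the lean of libraries by exonic length, and BRCA2 (11386 bases) is longer than PALB2 (4058 bases). BRCA2 stood furthest below its recruiter PALB2 in PEO1 DMSO, at −4.87, −4.04 and −3.70 in the A, B and C libraries. With prexasertib in PEO1 the difference was −2.43, −2.55 and −2.78. In COV362 it was −1.89, −1.14 and −1.55 in DMSO and −2.69, −1.68 and −1.84 with the drug. The PEO1 groups thus did not overlap with each other, PEO1 DMSO lay below every other library, and the COV362 groups overlapped. No test was made of these differences.

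The means of the other pairs differed less between the drug groups. BRCA1 stood above BARD1 by 1.84 ± 0.31 in COV362 DMSO, 2.02 ± 0.15 in COV362 prexasertib, 2.39 ± 0.16 in PEO1 DMSO and 2.12 ± 0.11 in PEO1 prexasertib. The PEO1 ranges, 2.22 to 2.53 in DMSO and 2.00 to 2.19 with the drug, did not overlap. BRCA1 exceeded BRIP1 by 2.44 to 2.97 in PEO1 DMSO and by 1.93 to 2.10 in PEO1 prexasertib, also without overlap. In COV362 the difference was 1.17 to 1.98 in DMSO and 1.66 to 1.96 with prexasertib. Within the MRN complex, NBN exceeded RAD50 by 1.59 to 1.89 in PEO1 DMSO and by 0.88 to 1.36 in PEO1 prexasertib, again without overlap. In COV362 that difference was 1.67 ± 0.21 in DMSO and 1.69 ± 0.33 with the drug. None of these balances was tested, and the share of all gene pairs without overlap was not computed. For single genes in PEO1, 25.0% of all tested genes were higher without overlap and 25.0% lower.

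**Figure D4:**
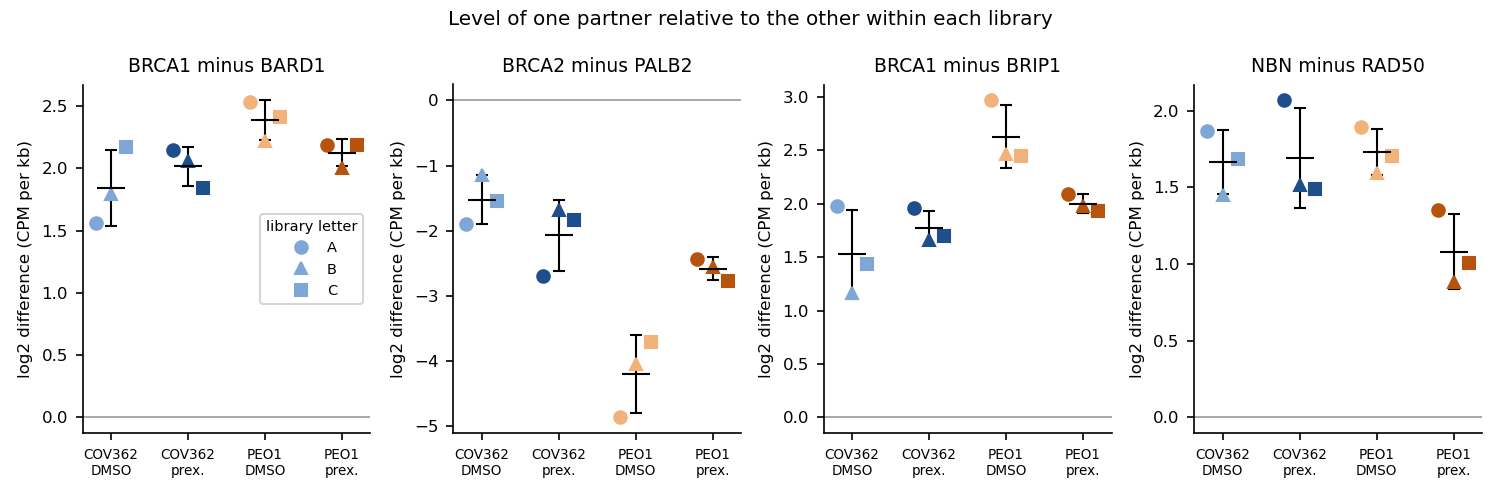
Difference in log2 CPM per kilobase of exon between partners (vertical axes) in each library of the 4 groups, with the mean ± SD of 3 libraries. BRCA2 minus PALB2 lies between −4.87 and −3.70 in PEO1 DMSO and between −2.78 and −2.43 in PEO1 prexasertib.

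Of 47 other recombination genes listed, 46 were in the table and all 46 were tested. In PEO1, 5 rose and 6 fell after prexasertib, where 14.7% of all tested genes rose and 14.6% fell, and neither count is a larger share than that. The median of the 46 was 0.06 on the log2 scale, beside 0.01 over all tested genes. RAD54L, which encodes a DNA motor protein of strand exchange, fell from 48.0 ± 1.98 to 26.5 ± 1.13 CPM (−0.85 ± 0.13, adjusted p = 0.00034). The junction nuclease gene MUS81 (−0.60 ± 0.21) and the shieldin gene FAM35A (SHLD2, −0.60 ± 0.15) fell as well, with adjusted p-values of 0.0426 and 0.00793. BRCA2 and RAD54L therefore moved in opposite directions in the same PEO1 libraries.

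Among the rises in PEO1, RIF1, which limits end trimming, went from 34.2 ± 6.45 to 72.4 ± 16.4 CPM (1.08 ± 0.37, adjusted p = 0.0387). The helicase gene HELQ (1.0 ± 0.23, adjusted p = 0.00503), the annealing factor gene RAD52 (0.98 ± 0.20, 0.00293) and PSMC3IP, a cofactor of strand exchange (0.75 ± 0.18, 0.0074), rose too. MRE11A, the nuclease of the MRN complex, averaged 36.3 ± 4.69 and 44.6 ± 4.68 CPM and was not called (0.30 ± 0.19, adjusted p = 0.264). In COV362, 0 of the 46 rose and 0 fell (median −0.11), where 0.607% of all tested genes rose and 0.221% fell. At an unadjusted edgeR p under 0.05, 0 were higher and 5 lower, beside 917 and 912 of all 14498 tested genes. DESeq2 called 0 higher and 1 lower (300 and 233 of all tested genes), and limma-voom 0 (80 and 51). With the letter as a block 0 were higher and 2 lower in COV362, beside 4.2% and 5.45% of all tested genes. RAD54L averaged 72.3 ± 3.43 and 67.6 ± 9.42 CPM there (−0.10 ± 0.13, adjusted p = 0.829), and MRE11A had −0.31 ± 0.19 (adjusted p = 0.553).

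The drug changes of 2 of these 46 genes differed between the lines, both more negative in PEO1, among them RAD54L by −0.76 ± 0.18 (adjusted p = 0.0276). Of all tested genes, 2.97% were called lower and 3.14% higher in this comparison. With single libraries left out, 0 to 3 of the 46 were called in this comparison. Between the untreated lines, 3 of the 46 were higher and 18 lower in PEO1, where 29.1% of all tested genes were higher and 28.6% lower. With the block 6 were higher and 26 lower (34.3% and 34.0% of all tested genes). The median of the 46 was −0.42. The largest falls were in SWI5 (−2.21 ± 0.33), RPA3 (−1.62 ± 0.17), FAM175A (ABRAXAS1, −1.41 ± 0.30) and RIF1 (−1.25 ± 0.37), and the rises were in BRCC3 (1.404 ± 0.16), SWSAP1 (1.25 ± 0.34) and EXO1 (1.01 ± 0.13), with adjusted p-values of at most 0.00981. MRE11A was lower (−0.61 ± 0.19, adjusted p = 0.0141), as NBN and RAD50 were with the block.

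**Figure D5:**
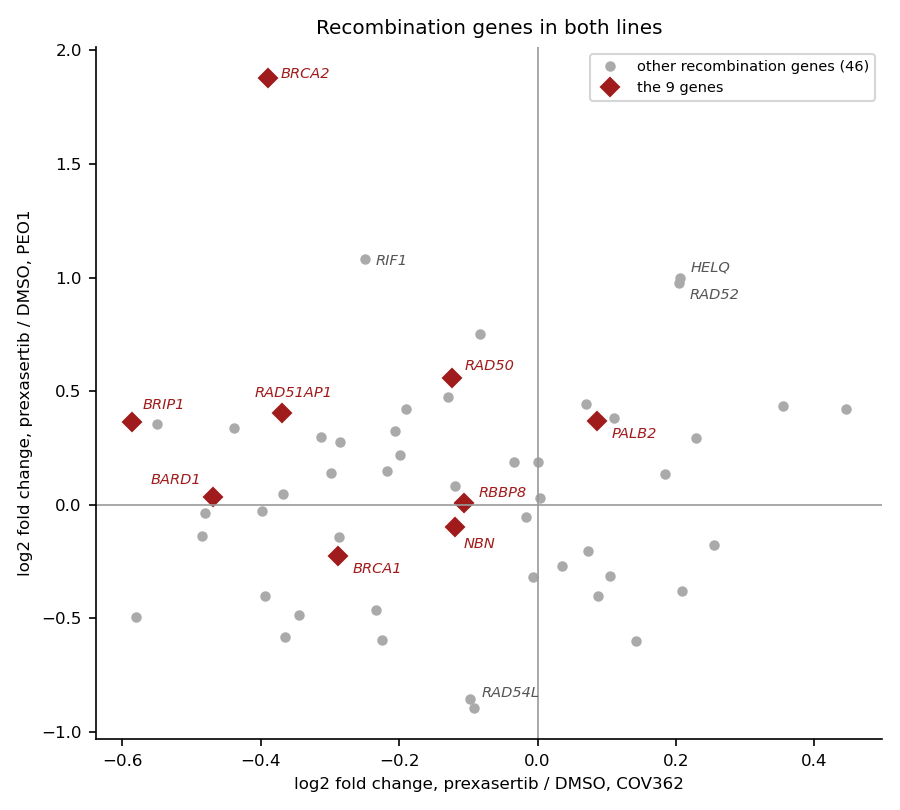
Log2 fold change after prexasertib in COV362 (horizontal axis) and PEO1 (vertical axis) for the 9 genes (red diamonds) and 46 other recombination genes (grey circles). BRCA2 lies highest on the PEO1 axis at 1.88 and at −0.39 on the COV362 axis, and RAD54L lies at −0.85 on the PEO1 axis.

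Genes of the drug's targets and of cell division were measured beside the members. CHEK1, which encodes CHK1, had −0.17 ± 0.12 in both COV362 (adjusted p = 0.629) and PEO1 (0.285), and CHEK2 had −0.53 ± 0.18 (0.204) and −0.49 ± 0.17 (0.0488). With the block CHEK2 was called in COV362 too (adjusted p = 0.0473). Of 10 proliferation genes, 0 rose and 4 fell in PEO1, where 14.7% of all tested genes rose and 14.6% fell. The 4 were MCM5 (−0.92 ± 0.14), CCNA2 (−0.70 ± 0.14), E2F1 (−0.68 ± 0.22) and CCNB1 (−0.36 ± 0.11), with adjusted p-values of at most 0.0331. The summed level of the 10 was 2056 to 2273 CPM in PEO1 DMSO and 1797 to 2190 CPM in PEO1 prexasertib, ranges that overlapped. In COV362 it was 2140 to 2907 and 1958 to 2542 CPM, and 0 of the 10 were called. With the block 0 were higher and 4 lower in COV362, where 4.2% of all tested genes were called higher and 5.45% lower. The rise of BRCA2 in PEO1 went with the fall of MCM5, CCNA2, E2F1 and CCNB1 there. The part of cell cycle distribution in that rise was not tested. Of 10 serous epithelial genes 6 also fell in PEO1, beside 14.6% of all tested genes, and their summed level was 6708 to 7824 CPM in DMSO and 3549 to 4136 CPM with the drug.

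Several members start next to a gene on the opposite strand, and the library kit does not keep the strand. DCTN5, a dynactin subunit gene whose 5′ end lies 9 bases from that of PALB2, rose in PEO1 from 101 ± 7.04 to 152 ± 13.3 CPM (0.59 ± 0.12, adjusted p = 0.0022), while PALB2 itself was not called. In COV362 DCTN5 was not called (−0.14 ± 0.12, adjusted p = 0.691), and its drug change differed between the lines (0.73 ± 0.17, adjusted p = 0.0222). C12orf4, 276 bases from the start of RAD51AP1, rose in PEO1 from 39.5 ± 1.86 to 53.7 ± 2.03 CPM (0.44 ± 0.13, adjusted p = 0.0201), with RAD51AP1 at 0.40 ± 0.20. NBR2, 100 bases from the start of BRCA1, was at 2.33 ± 0.767 and 4.79 ± 1.45 CPM in the PEO1 groups (adjusted p = 0.0562), with BRCA1 at −0.23 ± 0.16. LOC101928103, 518 bases from BARD1, averaged under 1 CPM in every group and was not called. None of these pairs share exonic bases in the table. RAD50 shares 228 exonic bases with TH2LCRR on the opposite strand, a gene at 0 in 3 of the 4 groups, at 0.0435 CPM in PEO1 DMSO, and not tested.

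Over the 12 libraries, the genes whose log2 CPM followed BRCA1 most closely, of 10679 genes that averaged 5 CPM or more, were ACACA (Pearson r = 0.97), PTBP3 (0.97) and KIAA1841 (0.94). ACACA averaged 135, 100 and 179, 125 CPM in the DMSO and prexasertib groups of COV362 and of PEO1. For BRCA2 they were HNRNPH1 (0.97), DDIAS (0.96) and ASH1L (0.95). HNRNPH1 averaged 796, 779, 552 and 872 CPM in COV362 DMSO, COV362 prexasertib, PEO1 DMSO and PEO1 prexasertib, with its lowest group, as for BRCA2, in PEO1 DMSO. These values describe likeness over libraries that share line, drug and letter, and the best of 10679 genes is high by selection.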

How the data were processed

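Per the labels, RNA was extracted on columns and libraries were made with the TruSeq RNA kit, version 2, which selects polyadenylated RNA and keeps no strand. The submitters' processing notes name STAR, Subread, featureCounts 1.4.6 and hg38, without roles or order. The authors deposited raw read counts per gene for the 12 libraries, with exon coordinates and exonic length per the file headers. How multi-mapping reads were treated is not given in the sources used here.

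Group differences in these counts came from edgeR 4.0.16 (R 4.3.3): TMM factors, filterByExpr (minimum count 10, minimum total 15), a quasi-likelihood model of the 4 groups over all 12 libraries (8 residual degrees of freedom) and BH adjustment over 14498 genes. The SE is the log2 fold change divided by the square root of F. Prexasertib was compared with DMSO in each line, the change in PEO1 with that in COV362, and the DMSO groups of the lines with each other. The test was tried on simulated counts. Alternatives were DESeq2 1.42.0, limma-voom (limma 3.58.1), other size factors, no filter, the letter as a replicate block, a length correction (loess, span 0.5), fewer libraries and an adjusted p under 0.01. Leaving out the A libraries was added after seeing the data. Members and gene lists were chosen with earlier results of these data known.

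Named were all members, up to 4 called genes per direction of the other recombination lists, always MRE11A, CHEK1 and CHEK2, opposite-strand genes within 1000 bases or with shared exons, and the 3 genes most like BRCA1 and BRCA2. Other names are examples or markers from the lists. A gene that this rule takes is not reported here.

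Whether equal letters pair libraries was read from the data, since the labels do not say. They were taken to where every same-letter correlation of deviations from the group means was over 0.1. These were 0.119 to 0.368 for the COV362 groups (different letters −0.376 to 0.126) and 0.124 to 0.297 for the DMSO groups of both lines (different letters −0.295 to 0.21). Promoters are from RefSeq (GRCh38.p14).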

Additional observations from a re-analysis of the deposited data

Results flagged for a closer look

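The drug change of BRCA2 differed between the lines by the test of the difference itself: the log2 change after prexasertib was 2.27 higher in PEO1 than in COV362 (SE 0.56, edgeR, BH-adjusted p = 0.0336). The change was above 0 in 3 of 3 letters of PEO1, which any pairing of its non-overlapping groups gives. In COV362 it was below 0 in 3 of 3 letters, where the groups overlapped. The call held in 3 of 12 fits that left out a library, with adjusted p-values from 0.0107 to 0.0855 over the 12.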

How the results depend on the processing

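In PEO1, BRCA2 was called under every alternative run. With the replicate block, or the block per line, 3 members were called in COV362 and 6 in PEO1 (5 higher, 1 lower). Both blocks gave 4 in the difference between the drug changes, and the common block gave 8 between the DMSO groups. In PEO1 the common block called 3476 of all 14498 tested genes higher and 3450 lower. The block per line called 3746 higher and 3700 lower there. With block and length correction the member counts were 2, 6, 4 and 8 in COV362, in PEO1, in the difference and between the lines. They were 0 higher and 2 lower, 5 and 1, 4 and 0, and 4 and 4. Of all 14498 tested genes, 1495, 7255, 4462 and 10117 were called in these fits. In PEO1 the member counts were also 2 with the length correction (5226 of all tested genes), 3 with only the libraries compared (5705), and 2 without the A libraries (4900). Leaving out the A libraries gave 2 in the difference (1130 of all tested genes) and 7 between the lines (8925). At an adjusted p under 0.01, 0 were called in the difference (157 of all tested genes). Leaving out single libraries gave 0 to 2 there. In PEO1 same-letter correlations were 0.0672 to 0.257, with the C pair under 0.1, so those libraries were taken to share only a letter. In none of these comparisons did every library correlate best with its own letter: PEO1 DMSO C did so with PEO1 prexasertib B (0.191), COV362 prexasertib C with COV362 DMSO B (0.126, own letter 0.119) and COV362 DMSO B with PEO1 DMSO C (0.21, own letter 0.134). The block raised all called genes from 120 to 1399 in COV362, 4249 to 6926 in PEO1, 885 to 4219 in the difference and 8361 to 9910 between the lines. DESeq2 gave 533, 5066, 1925 and 8712, the length correction 246, 5226, 1599 and 8955, the A libraries left out 330, 4900, 1130 and 8925, and a fit of only the compared libraries 10, 5705 and 8096. The block per line gave 1977, 7446 and 4906 in the first 3 of these comparisons, block with length correction 1495, 7255 and 4462, and an adjusted p under 0.01 gave 35, 2319 and 157. With single libraries left out, 27 to 128 genes were called in COV362, 3011 to 5053 in PEO1 and 328 to 1756 in the difference. Of the 46 other recombination genes, 20 were called in PEO1 with the block, 26 with the block per line, 24 with block and length correction and 7 under 0.01, against 11. In the difference these counts were 14, 18, 18 and 0, with 5 in DESeq2 and 4 with the length correction, against 2.

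Of the member log2 fold changes under alternatives, 705 kept direction and side of the threshold, 59 gained and 13 lost a call, and 42 changed sign. The cause was not tested. The tally includes fits that could change little. An adjusted p under 0.01 keeps the estimate, and some fits without a single library kept every library compared. Between the DMSO groups the block per line measures the difference at letter A alone, where BARD1 and RAD51AP1 gained a call. The sign changes were all in uncalled values near 0. In COV362, RBBP8 was at 0.029 without the A libraries, and with single libraries left out PALB2 ranged from −0.14 to 0.21, NBN from −0.28 to 0.026 and RAD50 from −0.36 to 0.15. In PEO1, BARD1 was at −0.0003799 with other size factors, −0.026 without a filter and −0.0002841 in DESeq2 (−0.25 to 0.13 with libraries left out), and RBBP8 at −0.032, −0.056 and −0.032, and −0.061 without the A libraries (−0.086 to 0.002515). In the difference, BRCA1 was at −0.002765 without a filter, −0.14 with the length correction and −0.14 with block and length correction (−0.15 to 0.20), RBBP8 at −0.0898 without the A libraries, and NBN at −0.0213, −0.048, −0.0211, −0.039, −0.0347 and −0.044 with other size factors, no filter, DESeq2, the length correction, block with length correction and no A libraries (−0.13 to 0.17).

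BRCA2 in PEO1 DMSO rests on 37 to 121 counts a library, which limits its precision.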
